A study of Homo sapiens with 4 samples.

Results

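Genes of the BCL2 family decide whether the outer mitochondrial membrane is opened during apoptosis, and 10 of them were followed here in HCT116 cells held at low oxygen. These were BAX, BAK1, BCL2L1, MCL1, BCL2L11, BID, BBC3, PMAIP1, BAD and BIK. All probe sets that the platform annotation lists for exactly 1 of these genes were taken, which gave 29 of the 54675 probe sets on the arrays, for 9 of the 10 genes. The single probe set listed for BBC3 is listed for microRNA genes as well, so BBC3 has no value here. HCT116 is an established human colon cancer line, and as a single line it stands for itself only. The hypoxia group (1% oxygen) and the normoxia group (21% oxygen) had 2 arrays each, which the titles assign to an experiment A and an experiment B. In both groups the cells had spent 24 h in medium without serum, and then 72 h at their oxygen level, so that the normoxia cells were serum starved too. The labels do not say whether the experiments used separate cultures, so the spread behind the p-values may be technical. It is that between these arrays, and the fit draws it towards that of other probe sets of like signal.

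The effectors BAX and BAK1 form the pores through which cytochrome c leaves the mitochondrion. The guardians, here BCL2L1 (BCL-xL) and MCL1, bind and restrain them. The BH3-only proteins, here BCL2L11 (BIM), BID, BBC3 (PUMA), PMAIP1 (NOXA), BAD and BIK, relay stress signals by occupying the guardians or by activating the effectors directly. Much of this control acts on the proteins, by cleavage, phosphorylation or degradation, which an RNA measurement does not read.

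Relative to the other genes on each array, both probe sets of BAX fell in hypoxia, to 0.307 and 0.269 times their normoxia signal, and both probe sets of PMAIP1 and 2 of 7 tested probe sets of BCL2L11 rose to between 1.57 and 1.90 times theirs. No probe set of BAK1, BCL2L1, MCL1, BID, BAD or BIK passed the test as reported, though under the hybridization control scaling given next 6 of these were called lower (BAK1 203728_at, BCL2L1 206665_s_at and 231228_at, BID 227143_s_at and 204493_at, and BIK 205780_at). The increases of PMAIP1 and BCL2L11 are relative to the other genes. With the arrays scaled to the hybridization controls instead, all 4 of these differences were negative and none passed. Both BAX probe sets remained lower. Under that scaling 10150 of all 27304 probe sets tested were called lower and 110 higher, beside 8 and 0 of the 27 family probe sets. In the usual scaling, the 4 calls of PMAIP1 and BCL2L11 were lost without an intensity trend and at a threshold of 0.01. Both BAX calls were kept there. Over all probe sets tested, 1704 and 2049 were called higher in those settings, against 3738 as reported.

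Of the 29 probe sets, 27 passed the filter on low signal (mean over the 4 arrays at or above 97.4) and were tested, and 2 did not. With limma and Benjamini-Hochberg adjustment over all 27304 probe sets tested, 4 of the 27 were called higher, 2 lower and 21 were not called at an adjusted p under 0.05. With the experiment as a replicate block, 4 were called higher and 4 lower, beside 4446 higher and 5669 lower (37.0%) over all probe sets tested. In the fit as reported 30.8% of all probe sets tested were called, 13.7% higher and 17.1% lower, against 22.2% of the 27. Calls were therefore not more frequent in the family than on the arrays as a whole, and the results below concern single genes. Differences are hypoxia minus normoxia in log2(signal + 23.7), a scale on which the change of low signals comes out too small. The median log2 difference was 0.14 over the 27, beside 0.05 over all probe sets tested. In 16 of the 27 the hypoxia and normoxia values did not overlap, 10 with hypoxia higher and 6 with hypoxia lower, while 68.5% of all probe sets tested had such groups, 35.4% with hypoxia higher and 33.2% with hypoxia lower.

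The values are MAS5 signals, which carry no read depth, so the number of arrays limits the precision. Each array had a trimmed mean of 500.1. The hybridization controls, which are added in fixed amounts, had geometric means of 9869 and 8594 on the hypoxia arrays, against 2444 and 4595 on the normoxia arrays. The ratio of the 3′ to the 5′ actin control, a sign of RNA integrity, was 1.66 and 1.77 in hypoxia, against 1.26 and 1.28 in normoxia, and that of GAPDH was 0.912 and 0.955 in hypoxia, against 0.918 and 0.996 in normoxia. Their part in the results was not tested. The highest of 27 Bacillus control probe sets, which should carry no human signal, was 305 and 226 on hypoxia A and B, against 45.7 and 121 on normoxia A and B, and values under the control of their own array are called near background below. Of 9 genes known to rise at low oxygen, the brightest probe sets of 8 rose. Epithelial markers were bright (EPCAM at 29321 and 27983 in hypoxia, against 17061 and 19368 in normoxia), while the intestinal marker CDX1 was near background on all 4 arrays, as were the leukocyte marker PTPRC and the endothelial marker CDH5. Of 4 endothelial markers, 1 passed the filter on low signal. The summed signal of the 4 was 437 and 348 in hypoxia, against 105 and 292 in normoxia. Among 6 fibroblast markers the summed signal was 2446 and 2797 in hypoxia, against 733 and 1182 in normoxia. The largest share of that sum was COL1A1, at 1752 and 2162 in hypoxia, against 545 and 595 in normoxia.

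**Figure D1:**
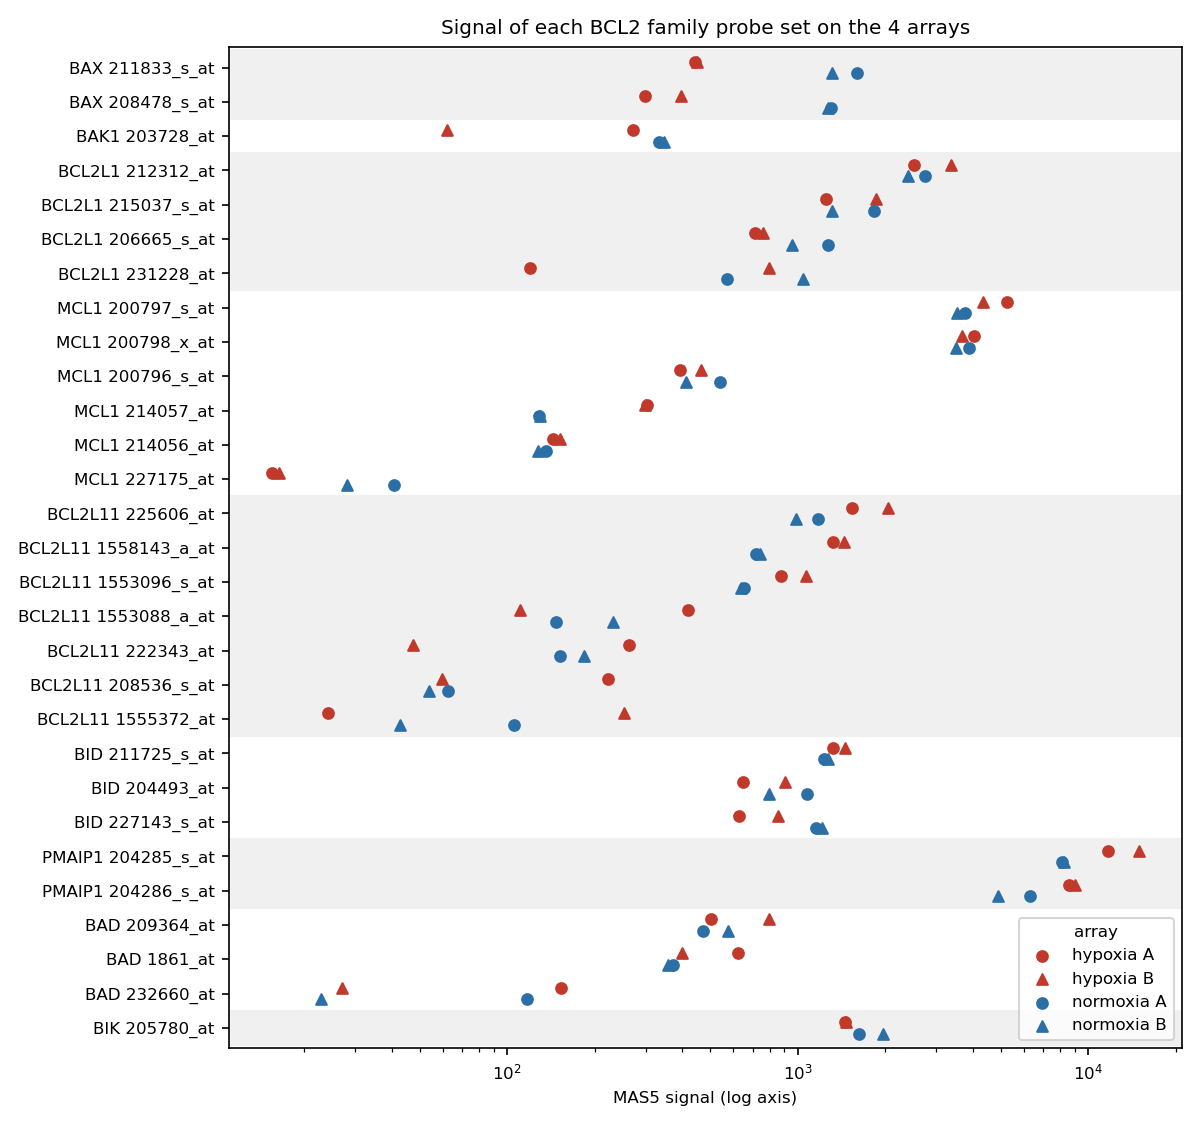
MAS5 signal (log axis) of each of the 29 BCL2 family probe sets on the 4 arrays, hypoxia in red above normoxia in blue, with circles for A and triangles for B. Both BAX probe sets lie lower on both hypoxia arrays, at 298 to 449, against 1276 to 1597 on the normoxia arrays, and both PMAIP1 probe sets lie higher. Scaled to the hybridization controls, the PMAIP1 difference turns negative.

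The promoters of the 3 genes with called probe sets are shown so that their motif content can be compared. They are RefSeq sequences of GRCh38.p14, from 250 bases before to 50 bases after the start of the gene, all on the plus strand: chr19:48954625-48954924 for BAX, chr18:59899746-59900045 for PMAIP1 and chr2:111120664-111120963 for BCL2L11. Capitals mark ACGTG or GCGTG on either strand, the core letters of the hypoxia response element.
BAX: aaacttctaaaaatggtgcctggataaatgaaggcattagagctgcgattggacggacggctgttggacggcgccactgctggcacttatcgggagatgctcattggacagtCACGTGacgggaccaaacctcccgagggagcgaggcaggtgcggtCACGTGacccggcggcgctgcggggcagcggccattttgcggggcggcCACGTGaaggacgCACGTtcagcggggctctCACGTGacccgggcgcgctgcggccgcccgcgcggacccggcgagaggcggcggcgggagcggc
PMAIP1: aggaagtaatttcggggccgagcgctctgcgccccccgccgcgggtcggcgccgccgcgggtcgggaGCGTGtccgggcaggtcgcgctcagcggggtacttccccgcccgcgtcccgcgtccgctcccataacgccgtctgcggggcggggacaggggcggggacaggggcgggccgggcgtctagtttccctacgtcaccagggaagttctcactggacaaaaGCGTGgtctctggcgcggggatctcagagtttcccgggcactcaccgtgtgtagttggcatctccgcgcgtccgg
BCL2L11: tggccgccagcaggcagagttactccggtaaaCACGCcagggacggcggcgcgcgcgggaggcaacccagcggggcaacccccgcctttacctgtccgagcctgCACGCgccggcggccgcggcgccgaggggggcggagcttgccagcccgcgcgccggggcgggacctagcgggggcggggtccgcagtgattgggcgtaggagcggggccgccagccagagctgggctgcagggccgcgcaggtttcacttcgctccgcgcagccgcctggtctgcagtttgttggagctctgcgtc

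The BAX promoter held the E-box CACGTG, the hexamer bound by MYC and MAX among others, 4 times, with first bases 138, 93, 45 and 14 bases before the start. ACGTG lies within the E-box on both strands, and BAX had 1 further ACGTG match outside an E-box, 32 bases before the start. The E-box occurred at least once in 7.26% of 35116 RefSeq promoters of the same length, and at least 4 times in 5 of them (0.0142%), that of BAX included. The count of 4 was set from the BAX promoter itself and no like count was made for other members or motifs, so this share is no test. The PMAIP1 promoter held 2 matches of GCGTG, with first bases 183 and 25 bases before the start, and that of BCL2L11 held 2 matches, 218 and 146 bases before it. Of the same promoters, 21.4% held ACGTG, 36.5% held GCGTG and 48.4% held either. BCL2L11 also held the FOXO site TGTTTAC on the opposite strand, 223 bases before the start, a motif found in 3.42% of promoters. BCL2L11 is a known target of FOXO factors, and the p53 half-site, looked for because BAX, PMAIP1 and BBC3 are known p53 targets, was found in none of the 3 promoters printed and in 6.63% of all. Promoters were matched for 8 of the 10 genes, and MCL1 and BIK were not among them. These genes had 14 promoters, some overlapping. Of the 14, 11 held either ACGTG or GCGTG, 4 the E-box, 1 the FOXO site and 1 the p53 half-site. Members without a called probe set had such matches too: BID (E-box, with the ACGTG in it, and GCGTG), BCL2L1 and BAD (GCGTG) and BAK1 (p53 half-site). BBC3, which has no value here, held the E-box with the ACGTG in it. These are matches of letters, not measured binding.

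BAX encodes the effector that moves from the cytosol to mitochondria and forms pores there. Probe set 211833_s_at measured 443 and 449 on hypoxia A and B, against 1597 and 1309.9 on normoxia A and B. Probe set 208478_s_at measured 298 and 396 in hypoxia, against 1302 and 1276 in normoxia. Every hypoxia value thus lay under every normoxia value of the same probe set, with the hypoxia A value of 208478_s_at the one that was near background. The log2 difference of 211833_s_at was -1.65 ± 0.24 (SE, 95% interval -2.18 to -1.11, limma adjusted p = 0.00106), and that of 208478_s_at was -1.84 ± 0.26 (95% interval -2.42 to -1.25, adjusted p = 0.000993). The mean signals were 446 ± 4.71 in hypoxia and 1453 ± 203 in normoxia for 211833_s_at (SD, n = 2), and 347 ± 69.4 in hypoxia and 1289 ± 18.1 in normoxia for 208478_s_at. Between arrays of 1 letter the log2 differences were -1.80 (A) and -1.50 (B) for 211833_s_at, and -2.04 (A) and -1.63 (B) for 208478_s_at. With any single array left out they ranged from -2.03 to -1.51 over both probe sets, and each call was kept. Scaled to the hybridization controls they were -3.05 and -3.22, which is 1.75 and 1.93 below the median of all probe sets under that scaling.

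BAK1, the other effector, sits in the outer mitochondrial membrane in healthy cells as well. Its probe set 203728_at measured 270.0 on hypoxia A and 61.9 on hypoxia B, against 332 and 347 on normoxia A and B. The hypoxia arrays differed from each other far more than the normoxia arrays did, both hypoxia values were near background, and both lay under both normoxia values. The log2 difference of -1.20 ± 0.60 (SE, 95% interval -2.56 to 0.17) was not called (adjusted p = 0.163). It was -2.09 without hypoxia A, where it passed (adjusted p = 0.00372), and -0.31 without hypoxia B. Scaled to the hybridization controls it was -2.47 and passed (adjusted p = 0.00296).

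Among the guardians, BCL2L1 encodes BCL-xL, and alternative splicing of its transcript also gives a short form that promotes death. Probe set 212312_at measured 2521 and 3364 on hypoxia A and B, against 2741 and 2405 on normoxia A and B. Probe set 215037_s_at measured 1247 and 1857 in hypoxia, against 1837 and 1308 in normoxia. In both the groups overlapped, and the order of the letters was reversed between them, with hypoxia lower in A and higher in B. Their log2 differences were 0.18 (95% interval -0.27 to 0.63) and -0.03 (95% interval -0.60 to 0.55). Probe set 206665_s_at measured 714 and 756 in hypoxia, against 1276 and 955 in normoxia, so that its groups did not overlap. Its log2 difference was -0.57 ± 0.24 (SE) and was not called (adjusted p = 0.100). It passed without hypoxia B (-0.61, adjusted p = 0.0345) and when scaled to the hybridization controls (-1.99, adjusted p = 0.0186). Probe set 231228_at measured 119 and 796 in hypoxia, against 569 and 1038.5 in normoxia, so that the groups overlapped and the arrays of each group lay far apart. Its value on hypoxia A was near background. Its log2 difference of -1.21 ± 0.68 (SE) was not called (adjusted p = 0.207). With the experiment as a replicate block it passed (adjusted p = 0.00196), with differences of -2.05 in experiment A and -0.37 in experiment B, and it also passed when scaled to the hybridization controls (-2.55, adjusted p = 0.00169). Leaving out hypoxia B gave -2.47, which passed (adjusted p = 1.53e-04), and leaving out hypoxia A gave 0.048.

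MCL1 encodes a guardian whose protein is made and degraded within hours. Its brightest probe set, 200797_s_at, measured 5245 and 4346 on hypoxia A and B, against 3760.1 and 3525 on normoxia A and B, with no overlap. The log2 difference was 0.39 ± 0.18 (SE, 95% interval -0.01 to 0.79) and was not called (adjusted p = 0.124). It passed when arrays were scaled to the 75th percentile (0.54, adjusted p = 0.0434) and without hypoxia B (0.52, adjusted p = 0.0181). Probe set 200798_x_at, whose suffix marks sets that can cross-hybridize, measured 4048 and 3668 in hypoxia, against 3884 and 3508 in normoxia, with a log2 difference of 0.06 (95% interval -0.32 to 0.45). Probe set 200796_s_at measured 394 and 463 in hypoxia, against 540.3 and 414 in normoxia, with a log2 difference of -0.14 (95% interval -0.84 to 0.56). The groups of these 2 probe sets overlapped.

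Probe set 214057_at of MCL1 measured 302 and 298 in hypoxia, against 128.7 and 129.2 in normoxia, with close values within each group and no overlap. The log2 difference was 1.09 ± 0.46 (SE), the largest positive one of the 27, and was not called (adjusted p = 0.104). Without an intensity trend the SE was 0.22, and the difference was still not called (adjusted p = 0.0507). Scaled to the hybridization controls it was -0.22. The hypoxia A value of 214057_at was near background. Probe set 214056_at measured 143 and 152 in hypoxia, against 136 and 127 in normoxia, a log2 difference of 0.14. Both hypoxia values of 214056_at were near background. The remaining probe set of MCL1, 227175_at, did not pass the filter, with 15.5 and 16.3 in hypoxia, against 40.8 and 28.1 in normoxia, all near background.

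PMAIP1 encodes NOXA, a small BH3-only protein that binds MCL1 and promotes its degradation, and whose gene is induced by p53 and by the stress factor ATF4. Probe set 204285_s_at measured 11704 and 14925 on hypoxia A and B, against 8132 and 8259.7 on normoxia A and B. Probe set 204286_s_at measured 8609 and 9015 in hypoxia, against 6329.8 and 4895 in normoxia. Both hypoxia values were above both normoxia values in each, and the 2 probe sets gave nearly the same size of change. The log2 difference of 204285_s_at was 0.69 ± 0.18 (SE, 95% interval 0.27 to 1.10, adjusted p = 0.0199), and that of 204286_s_at was 0.66 ± 0.18 (95% interval 0.25 to 1.07, adjusted p = 0.0239). The mean signals were 13314 ± 2278 in hypoxia and 8196 ± 90.1 in normoxia for 204285_s_at (SD, n = 2), a ratio of 1.62. Without normoxia B the call of 204286_s_at was lost (0.48, adjusted p = 0.182), and without an intensity trend both were lost (adjusted p = 0.132 and adjusted p = 0.146). Scaled to the hybridization controls the differences were -0.77 and -0.79, not called, and lay 0.53 and 0.50 above the median of all probe sets there.

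BCL2L11 encodes BIM, a BH3-only protein that activates BAX and BAK1 directly, binds all guardians and is made as several splice forms. Its 7 probe sets fell into a bright set of 3 and a dim set of 4. Of the bright ones, 225606_at measured 1541 and 2041.5 on hypoxia A and B, against 1178 and 984 on normoxia A and B. Probe set 1558143_a_at measured 1326 and 1447 in hypoxia, against 718 and 739 in normoxia. Probe set 1553096_s_at measured 874 and 1068 in hypoxia, against 653 and 639.8 in normoxia. All 3 were higher on both hypoxia arrays than on either normoxia array. The log2 differences were 0.71 ± 0.22 (SE, adjusted p = 0.0380) for 225606_at, 0.91 ± 0.21 (adjusted p = 0.0111) for 1558143_a_at, and 0.56 ± 0.24 (not called, adjusted p = 0.103) for 1553096_s_at, which passed at the 75th percentile scaling (0.71, adjusted p = 0.0495) and without hypoxia A (0.70, adjusted p = 0.0142). Both calls were lost without normoxia A (0.84 and 0.89, adjusted p = 0.162 and adjusted p = 0.160) and without normoxia B (0.58 and 0.93, adjusted p = 0.343 and adjusted p = 0.139), and without an intensity trend (adjusted p = 0.146 and adjusted p = 0.0689). The median SD between arrays over all probe sets tested was 0.30 on the log2 scale for hypoxia, the only group left with a spread in those fits, against 0.17 for normoxia. Scaled to the hybridization controls, the 3 differences were -0.73, -0.52 and -0.85, which is 0.57, 0.78 and 0.44 above the median of all probe sets there.

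The 4 dim probe sets of BCL2L11 did not repeat between the hypoxia arrays. Probe set 1553088_a_at measured 418 and 110.3 on hypoxia A and B, against 147 and 230.3 on normoxia A and B. Probe set 222343_at measured 263 and 47.3 in hypoxia, against 152 and 183 in normoxia. In both, hypoxia was higher in A and lower in B. Probe set 1555372_at went the other way, with 24.1 and 253 in hypoxia, against 106 and 42.7 in normoxia. Near background were its values on hypoxia A and normoxia B, the hypoxia B value of 1553088_a_at and both hypoxia values of 222343_at. Probe set 208536_s_at measured 223 and 59.7 in hypoxia, against 62.5 and 53.6 in normoxia, with 3 of 4 values near background. The groups overlapped in all 4, none was called, and their 95% intervals were wide (from -2.09 to 1.25 for 222343_at), so they do not show whether they moved with the bright sets.

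BID encodes a BH3-only protein that caspase-8 cleaves to its active form, linking death receptors to mitochondria. Its 3 probe sets disagreed. Probe set 211725_s_at measured 1318 and 1452 on hypoxia A and B, against 1234 and 1272 on normoxia A and B, slightly higher with no overlap, a difference that is negative when scaled to the hybridization controls. Probe set 227143_s_at measured 627 and 856 in hypoxia, against 1156 and 1215 in normoxia, lower with no overlap. Probe set 204493_at measured 647 and 907 in hypoxia, against 1073 and 796 in normoxia, and its groups overlapped. The log2 differences were 0.14 (95% interval -0.30 to 0.59), -0.68 (95% interval -1.21 to -0.14) and -0.26 (95% interval -0.87 to 0.34), with adjusted p = 0.620, adjusted p = 0.0594 and adjusted p = 0.487. That of 227143_s_at passed without hypoxia B (-0.89, adjusted p = 0.00193) with a filter at the 75th percentile of mean signal (adjusted p = 0.0411) and with the experiment as a replicate block (adjusted p = 0.0279). Scaled to the hybridization controls, 227143_s_at and 204493_at passed, at -2.09 (adjusted p = 0.0132) and -1.68 (adjusted p = 0.0488).

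BAD encodes a BH3-only protein that survival signals switch off by phosphorylation, after which 14-3-3 proteins hold it in the cytosol. Probe set 209364_at measured 502 and 799 on hypoxia A and B, against 471 and 574 on normoxia A and B, with overlap. Probe set 1861_at measured 620.5 and 399 in hypoxia, against 373 and 358 in normoxia, with no overlap but a wide gap between the hypoxia arrays. Neither was called, with log2 differences of 0.27 (95% interval -0.42 to 0.97) and 0.42 (95% interval -0.33 to 1.17). The remaining probe set, 232660_at, did not pass the filter, with 153 and 26.9 in hypoxia, against 117 and 22.8 in normoxia. All of these but the normoxia A value were near background. BIK, a BH3-only protein found largely at the endoplasmic reticulum, had 1 probe set, 205780_at, with 1456 and 1462 in hypoxia, against 1626 and 1959.8 in normoxia. The hypoxia values were nearly equal and under both normoxia values, and the log2 difference of -0.29 ± 0.19 (SE, 95% interval -0.73 to 0.15) was not called (adjusted p = 0.293), except when scaled to the hybridization controls (-1.72, adjusted p = 0.0422).

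**Figure D2:**
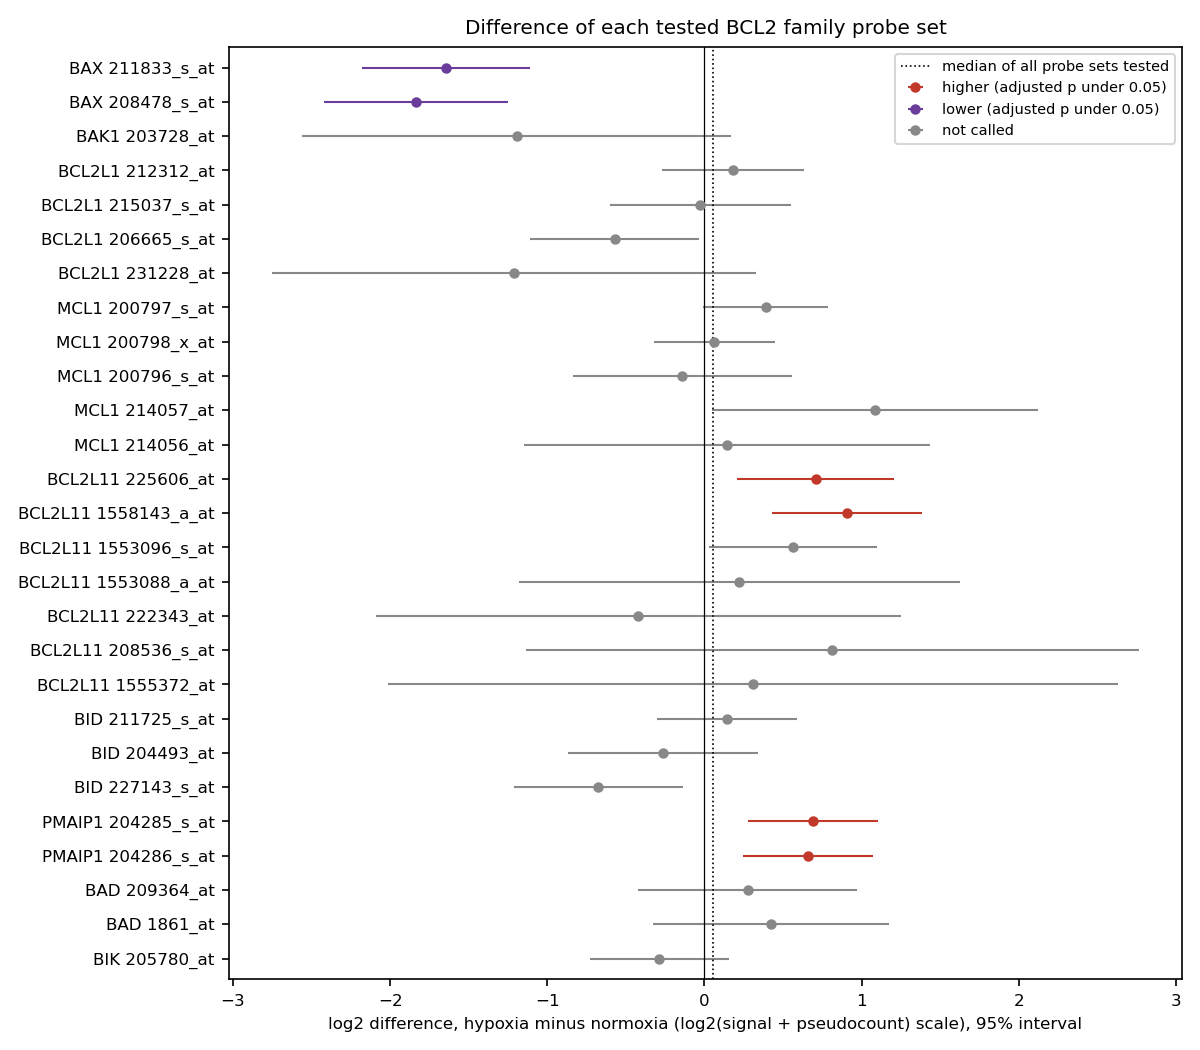
Log2 difference (hypoxia minus normoxia) of each of the 27 tested BCL2 family probe sets with its 95% interval, coloured by call; the dotted line is the median of all probe sets tested, 0.05. The intervals of both BAX probe sets lie wholly below 0, and those of both PMAIP1 probe sets and 2 BCL2L11 probe sets that were called lie wholly above it, a direction that turns negative when arrays are scaled to the hybridization controls.

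The other genes of the pathway were taken from 6 lists, all read from the same fit, in which 30.8% of probe sets were called, 13.7% higher and 17.1% lower. A bulk signal cannot tell fewer cells of a kind from less RNA per cell. Other BCL2 family and related genes had 22 tested probe sets, with 4 higher, 4 lower and 14 without a call, and a median log2 difference of 0.09. By brightest probe set, BNIP3L, a mitophagy receptor, rose with 17471 and 17376 in hypoxia, against 5735 and 5221 in normoxia (log2 difference 1.67 ± 0.17 SE). Scaled to the hybridization controls, the BNIP3L difference was 0.21 and was not called. BOK, a relative of BAX and BAK1, fell with 258 and 356 in hypoxia, against 1098 and 1202 in normoxia (-1.84 ± 0.28 SE). BECN1, an autophagy protein with a BH3 motif, and BNIP2 fell by 0.91 and 0.80 on the log2 scale. The call of BECN1 was lost without normoxia A, and that of BNIP2 without normoxia A or normoxia B. Decreases were fewer in those fits, both in this list and over all probe sets tested.

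Of 29 tested probe sets of caspase and apoptosome genes, 10 fell, 2 rose and 17 were not called, with a median log2 difference of -0.73 beside 0.05 over all probe sets tested. The executioner-stage caspase gene CASP6 measured 245 and 240.2 in hypoxia, against 1182 and 1051 in normoxia (-2.10 ± 0.27 SE). CASP8, whose product cleaves BID, measured 884 and 698 in hypoxia, against 2682 and 2646 in normoxia (-1.73 ± 0.20 SE). DFFB, the nuclease that cuts DNA in dying cells, and DFFA, its inhibitor and chaperone, fell by 2.18 and 1.71 on the log2 scale. Both hypoxia values of DFFB, and those on hypoxia A of CASP6 and of BOK above, were near background. Fewer probe sets were called in this list without normoxia A or without normoxia B, as was the case over all probe sets tested. Under the hybridization control scaling 23 fell and 0 rose, while 10150 of all 27304 probe sets tested fell and 110 rose.

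Of 18 tested probe sets of the inhibitors of apoptosis and their antagonists, 5 fell, 1 rose and 12 were not called, with a median of -0.27. HTRA2, a mitochondrial protease that antagonises the inhibitors once released, measured 509 and 532 in hypoxia, against 2060.1 and 2266 in normoxia (-2.00 ± 0.21 SE). BIRC5, survivin, which also acts in mitosis, fell by 1.45, and BIRC2, a ubiquitin ligase of this family, had a log2 difference of 0.91 ± 0.16 (SE), which was -0.55 and not called when scaled to the hybridization controls. Of 32 tested probe sets of death receptor and adaptor genes, 7 fell, 2 rose and 23 were not called, with a median of -0.02. The decoy receptor gene TNFRSF10D measured 12838 and 20154 in hypoxia, against 3956 and 4300.1 in normoxia (1.96 ± 0.22 SE). Its difference was 0.50 and not called when scaled to the hybridization controls. FAS measured 521 and 341 in hypoxia, against 1504 and 1792 in normoxia, while the adaptors TRADD and FADD fell by 2.44 and 1.02 on the log2 scale, calls that were lost without either normoxia array, as was that of FADD under quantile normalization (adjusted p = 0.052). Both hypoxia values of TRADD, 31.7 and 179.8, were near background. Leaving out either normoxia array gave fewer decreases in this list and in that of the inhibitors, as was the case over all probe sets tested.

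Of 47 tested probe sets of binding partners and turnover factors of BCL2 proteins, 12 rose, 12 fell and 23 were not called, with a median of 0.12. MTCH2, the mitochondrial receptor of cleaved BID, measured 1604 and 1683 in hypoxia, against 5524 and 5733 in normoxia (-1.76 ± 0.17 SE). BAG1, a chaperone cofactor that binds BCL2, fell by 1.37 on the log2 scale, a call lost without normoxia A. In that fit fewer probe sets fell, both in this list and over all probe sets tested. HUWE1, a ubiquitin ligase of MCL1, and TPT1, which binds MCL1, had log2 differences of 1.14 and 1.03 from probe sets that can cross-hybridize. Scaled to the hybridization controls these were -0.32 and -0.43. The HUWE1 probe set measured 69710 and 70692 in hypoxia, against 25390 and 39825 in normoxia. That of TPT1 measured nearly the same, with 69847 and 67396 in hypoxia, against 26616 and 42282 in normoxia. Whether both read the same transcripts was not tested. Neither increase held under quantile normalization (adjusted p = 0.249 and adjusted p = 0.850), and the call of TPT1 was lost without either hypoxia array. Under quantile normalization 2 probe sets of the list rose and 10 fell (3535 and 4202 over all). In the fit as reported, other probe sets of HUWE1 ranged from -0.13 to 1.56.

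Transcription factors known to act on BCL2 family genes had 27 tested probe sets, of which 11 rose, 1 fell and 15 had no call, and the median was 0.51. FOXO3, which activates BCL2L11 when growth factor signalling is low, measured 12444 and 11552 in hypoxia, against 2715 and 2952 in normoxia (2.07 ± 0.17 SE), and its 3 other tested probe sets had differences from 1.82 to 2.20. FOXO1, its relative, measured 919 and 1219.7 in hypoxia, against 300.2 and 478 in normoxia (1.43 ± 0.30 SE), a call lost without normoxia A. EPAS1 (HIF-2 alpha) and STAT3, which is known to activate MCL1 and BCL2L1, had log2 differences of 1.94 and 1.34, against 0.49 and -0.10 when scaled to the hybridization controls. In the fit as reported, the other tested probe set of EPAS1 had a difference of 0.88. The 2 others of STAT3 had 0.74 and 1.36. Without normoxia A fewer probe sets rose, both in this list and over all probe sets tested. Under the hybridization control scaling none of the 27 rose and 3 fell. Over all 6 lists no probe set rose there, while 110 of all 27304 probe sets tested rose and 10150 fell.

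**Figure D3:**
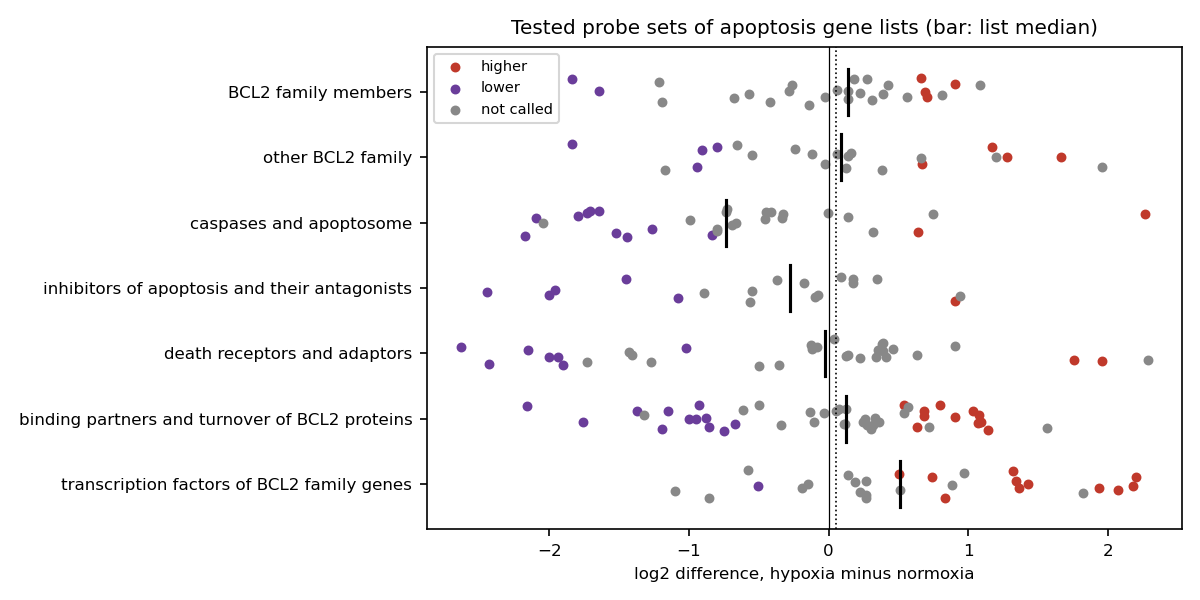
Log2 difference (hypoxia minus normoxia) of each tested probe set of the BCL2 family members and of the 6 other apoptosis lists, coloured by call, with a bar at each list's median and a dotted line at the median of all probe sets tested. The caspase and apoptosome list has its median at -0.73 and the transcription factor list at 0.51, while the members' median is 0.14. Under the hybridization control scaling these medians are -2.14, -0.94 and -1.27, beside -1.30 over all probe sets tested.

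**Figure D4:**
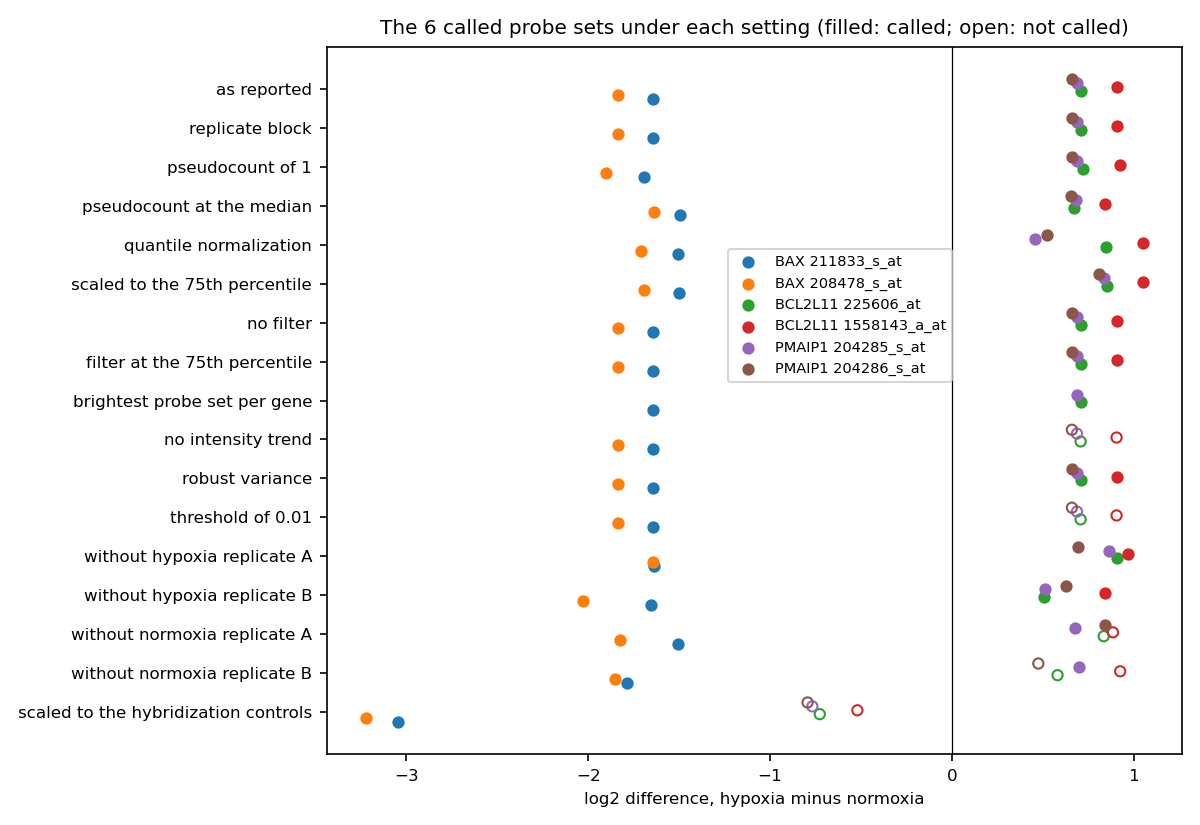
Log2 difference (hypoxia minus normoxia) of the 6 called BCL2 family probe sets under each processing setting, filled where called and open where not. The BAX differences stay between -3.22 and -1.50 and are called wherever tested, while the PMAIP1 and BCL2L11 differences lose calls under several settings and are negative when arrays are scaled to the hybridization controls.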

How the data were processed

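The authors deposited 1 intensity per probe set and array, on a linear scale. Per the submitters' processing notes these are MAS5 signals, with no version named there. The labels' protocols give 6 µg as the input of total RNA. Equal trimmed means (2% off each end) show that the arrays were scaled to each other, which hides a change common to most genes. Groups follow the labelled oxygen. The titles pair the arrays by experiment (A, B), while the deviations of same-lettered arrays from their group means correlated at only 0.06; the fit as reported has no block. No 2 arrays shared more than 1 identical value.

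The 54675 probe sets comprise 41091 with 1 gene, 1801 with several, 11721 with none and 62 controls; 19735 of 19777 genes matched a RefSeq table for current symbols. Signals were taken as log2(signal + 23.7), the 25th percentile of all values, with no further normalization. Probe sets with a mean at or above 97.4, the median of all means, were tested with limma 3.58.1 in R 4.3.3 (intensity trend, two-sided, Benjamini-Hochberg). The fit was checked on simulated data that had the same spread in both groups. The check therefore does not cover the unequal spread of these arrays, with a median SD of 0.30 in hypoxia, against 0.17 in normoxia. Figures used Python 3.11.15 and matplotlib 3.10.9. All member probe sets are named; of each other list up to 4 called genes with the largest difference of their brightest probe set. Of the 6 other lists, genes without a probe set listed for them alone were not analysed here. The members and lists were chosen with earlier results of these data known. The 15 alternatives are a replicate block, other pseudocounts, normalizations, filters, variance models and thresholds, the brightest probe set per gene and leaving out each array; scaling to the 18 hybridization controls was added after seeing the data.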

Additional observations from a re-analysis of the deposited data

How the results depend on the processing

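Under the 15 planned settings both BAX calls were kept wherever the probe set was tested. Across leave-one-out fits, 1 to 5 family probe sets were called higher and 2 to 5 lower, and over all probe sets 2267 to 5000 higher and 2043 to 6785 lower. With the experiment as a replicate block, 4 were called lower (5669 over all). The further 2 were BCL2L1 231228_at (adjusted p = 0.00196) and BID 227143_s_at (adjusted p = 0.0279). No other call of a family probe set changed. With the brightest probe set per gene, which tests fewer probe sets, 2 were called higher and 1 lower (1927 and 2876 over all). Without an intensity trend 0 were called higher (1704 higher and 2120 lower over all), and at a threshold of 0.01 likewise 0 (2049 and 2676 over all); the cause of the first was not tested. Scaled to the hybridization controls, 0 were higher and 8 lower (110 and 10150 over all), with the median of all probe sets at -1.30; the 75th percentile moved that median to 0.19 and gave 53.9% of calls higher, against 44.5%.

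Signs that turned were mostly those of uncalled probe sets. Under quantile normalization these were BCL2L1 215037_s_at (0.090), MCL1 200796_s_at (0.010) and MCL1 214056_at (-0.19), and at the 75th percentile the first 2 (0.12 and 0.00083). Leaving out 1 array gave BCL2L1 212312_at -0.026 to 0.39, 215037_s_at -0.31 to 0.26 and 231228_at -2.47 to 0.048; MCL1 200798_x_at -0.011 to 0.13 and 200796_s_at -0.32 to 0.042; BAD 209364_at -0.050 to 0.60; and BCL2L11 1553088_a_at -0.64 to 1.08, 222343_at -1.43 to 0.59 and 1555372_at -0.96 to 1.58. Scaling to the hybridization controls, which shifts all genes of an array, gave BCL2L1 212312_at -1.27; MCL1 -1.06 (200797_s_at), -1.39 (200798_x_at), -0.22 (214057_at) and -1.11 (214056_at); BID 211725_s_at -1.29; BAD -1.12 (209364_at) and -0.96 (1861_at); BCL2L11 -0.73 (225606_at), -0.52 (1558143_a_at), -0.85 (1553096_s_at), -1.07 (1553088_a_at), -0.76 (1555372_at) and -0.33 (208536_s_at); and PMAIP1 -0.77 (204285_s_at) and -0.79 (204286_s_at).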

Other observations

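The genes whose pattern over the 4 arrays was most like that of a called member were found by the Euclidean distance between log2 values centred on their own mean. For BCL2L11 1558143_a_at, the largest called increase, these were CPE (distance 0.019, log2 difference 0.90), WSB1 (0.037, log2 difference 0.90) and MCC (0.040, log2 difference 0.90). CPE encodes a carboxypeptidase of prohormone processing, and measured 3131 and 3365 in hypoxia, against 1713 and 1743 in normoxia. MCC was not called (adjusted p = 0.115). For BAX 208478_s_at, the largest called decrease, they were PRR3 (distance 0.059, log2 difference -1.80), TIMM10 (0.084, log2 difference -1.76) and DTD2 (0.090, log2 difference -1.89). TIMM10 encodes a small chaperone of the mitochondrial intermembrane space, and measured 474 and 606 in hypoxia, against 1885 and 1859 in normoxia. With 4 arrays in 2 groups, such likeness mostly restates a similar difference.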
